A study of Mus musculus with 6 samples.

Results

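The cytosolic ribosomal protein genes are the mouse genes whose symbols start with Rpl or Rps followed by a digit, with the stalk genes Rplp0, Rplp1 and Rplp2 included in the rule and the S6 kinase genes and pseudogenes left out. They were taken by symbol from the named probes of the array, with no measured value in the choice, and where a gene had 2 probes the brighter one over the 6 arrays was used. The rule found 67 genes among 19321 named genes, none of them a stalk gene. Of these, 58 encode canonical ribosomal proteins, 35 of the large and 23 of the small subunit. The other 9 are paralogs of ribosomal protein genes or, in 1 case (Rps19bp1), a binding protein.

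Expression was measured on 6 one-colour arrays of Cy5-labelled amplified RNA from cells freshly sorted by FACS out of hind limb muscle of C57BL/6 mice. The 3 populations were PDGFRa+ mesenchymal progenitors, satellite cells (the resident muscle stem cells), and a mixed sort of CD31+ or CD45+ cells, written CD31_CD45 below, which holds endothelial or hematopoietic cells. Young mice were 8 to 10 weeks old and aged mice 24 to 28 months old; no transgene, knockout or treatment is given in the labels. Each population and age is 1 array of cells pooled from repeated sorts, so a population has 2 arrays, 1 young and 1 aged, and an age within a population has no replicate.

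Ribosomal proteins are assembled with ribosomal RNA in the nucleolus into a large subunit, which forms peptide bonds, and a small subunit, which decodes the mRNA. Their mRNAs are among the most abundant of any cell, and in mammals most of them start with a stretch of pyrimidines, the terminal oligopyrimidine tract, through which mTOR signalling adjusts their translation. Satellite cells in uninjured muscle are largely quiescent and enlarge, with more ribosome synthesis, once they are activated.

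RefSeq start-site sequences (build GRCm38.p6) matched 53 of the 67 genes, 45 of them canonical. The window examined runs from 50 bases before to 30 bases after the listed start. A run of at least 8 consecutive C or T bases on the RNA-like strand was searched anywhere in it. Such a run need not lie at the start of the mRNA, as the terminal tract does. In Rpl22 it begins at base -39 from the listed start. Such a run lay in 57.8% of the 45 canonical windows and in 30.2% of the windows of all 27025 genes in the table. The letters CTTTCC, which can lie within such a run, were found on that strand in 20% of the canonical windows against 3.83% of all windows, and CCGGAAG, on either strand, in 24.4% against 5.02%. AAGATGG on either strand was in 4.44% against 1.92%, and TATAAA on the RNA-like strand in 4.44% against 3.39%. Windows of 6 large-subunit genes that were called between populations and hold a run are shown first, chosen for both, each with its longest run in capitals.
Rpl22 (chr4:152325676-152325755, plus strand): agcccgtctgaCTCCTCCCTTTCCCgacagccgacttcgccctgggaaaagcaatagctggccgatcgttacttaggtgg
Rpl13a (chr7:45128716-45128795, minus strand): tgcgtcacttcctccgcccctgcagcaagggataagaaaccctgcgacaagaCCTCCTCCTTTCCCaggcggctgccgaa
Rpl14 (chr9:120571467-120571546, plus strand): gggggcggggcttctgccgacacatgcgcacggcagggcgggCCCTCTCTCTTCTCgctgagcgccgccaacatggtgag
Rpl27a (chr7:109519145-109519224, plus strand): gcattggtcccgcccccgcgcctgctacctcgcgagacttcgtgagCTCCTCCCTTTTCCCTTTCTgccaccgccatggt
Rpl28 (chr7:4792915-4792994, plus strand): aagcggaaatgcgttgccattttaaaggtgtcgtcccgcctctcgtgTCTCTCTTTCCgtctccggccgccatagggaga
Rpl31 (chr1:39367801-39367880, plus strand): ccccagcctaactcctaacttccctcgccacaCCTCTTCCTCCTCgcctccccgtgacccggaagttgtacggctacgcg
Next are Rpl23 and Rps19, which were also called between populations and have no run of that length in the window.
Rpl23 (chr11:97782410-97782489, minus strand): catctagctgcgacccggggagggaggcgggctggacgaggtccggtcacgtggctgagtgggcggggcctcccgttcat
Rps19 (chr7:24884542-24884621, plus strand): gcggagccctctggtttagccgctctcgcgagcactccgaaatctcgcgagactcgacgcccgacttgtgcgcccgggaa
Last come Rpl38 and Rps15a, canonical genes with a run but without the pattern of the others, and Rpl39l, a paralog with a pattern of its own.
Rpl38 (chr11:114668530-114668609, plus strand): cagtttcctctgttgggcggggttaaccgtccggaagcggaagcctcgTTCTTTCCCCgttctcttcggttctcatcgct
Rps15a (chr7:118116118-118116197, minus strand): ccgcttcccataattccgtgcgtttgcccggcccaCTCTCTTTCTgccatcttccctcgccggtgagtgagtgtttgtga
Rpl39l (chr16:10170178-10170257, plus strand): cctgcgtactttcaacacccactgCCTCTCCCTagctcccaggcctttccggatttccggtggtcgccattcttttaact
The start listed for a gene need not be the start used in these cells. Among the canonical genes with a matched window, the 26 with a run had a median satellite over PDGFRa fold of 2.0 and the 19 without one a median of 1.98. This split is by a run anywhere in the window and not by the terminal tract.

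The values used are the intensities deposited by the authors, which are linear and scaled so that the median of each array is 25, and log2 values recomputed from the scanner files. The log2 values were quantile normalised, which gives every array the same distribution, or, where stated, median scaled, which shifts each array by a constant. A gene was called between populations when the limma fit over 18372 tested genes gave an adjusted p under 0.05 and a difference of at least 2-fold. Quantile normalisation fixes the brightest values of every array to the same level, and the members held 33 of the 100 brightest probes and 20 of the 50 brightest, so the counts and medians are given on both scales, and a call of a single gene is on the quantile scale unless median scaling is named. All 67 members were tested, and 66 were above background on all 6 arrays; Rpl3l was below it on both PDGFRa arrays. Between 88.4% and 92.3% of all probes were above background on an array. The number of arrays limits the precision. The spread behind the p-values is how far the age difference varies between populations, since no population and age has a second pool.

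Ribosomal protein genes were brightest in satellite cells at both ages. The members took 14.1% of the summed intensity of the young satellite array and 13.5% of the aged one, against 8.12% and 8.81% in PDGFRa+ cells and 7.68% and 7.75% in CD31_CD45 cells, young and aged. The median member intensity was 16020 and 12600 in satellite cells, 6378 and 6799 in PDGFRa+ cells and 5389 and 4938 in CD31_CD45 cells. The satellite arrays do not overlap the other 4 on either measure. For 61 of the 67 members (56 of the 58 canonical genes), both satellite arrays lay above all 4 other arrays in the authors' intensity, an order that 22.4% of all tested genes had. With quantile normalised values it held for 55 members, against 23% of all genes. The opposite order, satellite cells below all others, was found in 2 members (Rps15a and Rps4l) against 13.2% of all genes. In bulk RNA such as this, fewer cells of a type and less RNA per cell cannot be told apart.

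**Figure D1:**
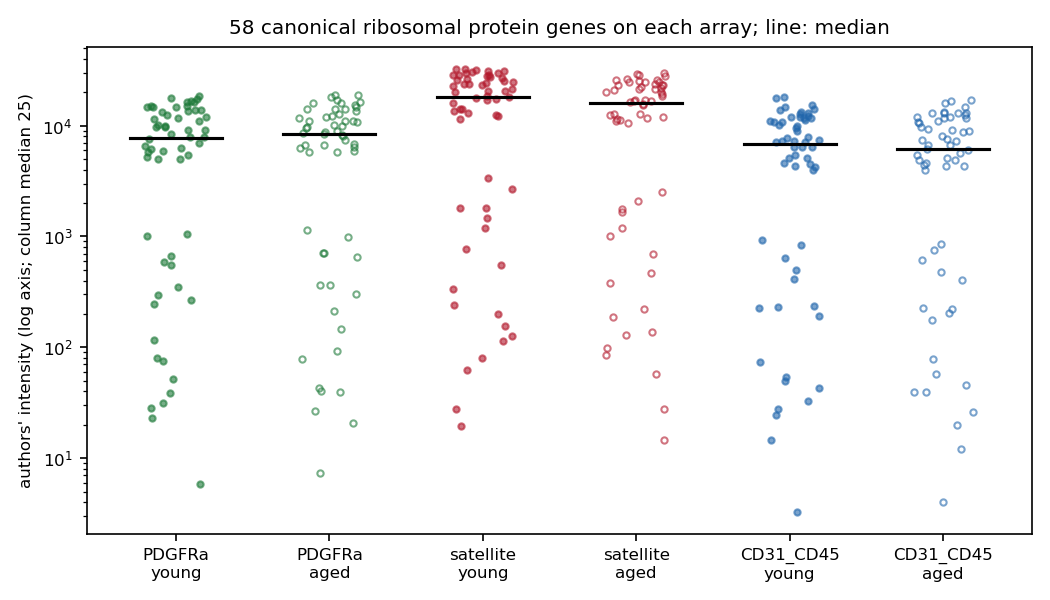
Authors' intensity (log axis) of the 58 canonical ribosomal protein genes on each array, 1 point per gene, filled for young and open for aged arrays, with a line at the median. The satellite medians, 17991.4 and 15984.5, lie above those of the other 4 arrays, which range from 6100.8 to 8328.6.

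Over the 58 canonical genes the median satellite over PDGFRa fold was 1.97 in the authors' intensity, with genes ranging from 0.82 to 3.7, and the median satellite over CD31_CD45 fold was 2.44, ranging from 0.866 to 5.43. The large subunit (35 genes, medians 2.02 and 2.5) and the small subunit (23 genes, medians 1.9 and 2.37) gave like values. On the log2 scale the median difference of all 67 members, PDGFRa minus satellite, was -0.36 after quantile normalisation and -0.92 after median scaling, where the medians of all tested genes were -0.01 and 0. For satellite minus CD31_CD45 it was 0.52 and 0.94, with 0.02 and 0.11 over all genes. The direction was the same on both scales, and the size was not.

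Quantile normalised values gave 11 members higher in satellite than in PDGFRa+ cells, where 3.2% of all tested genes were called in that direction, and 2 members lower, where 4.09% were. Against CD31_CD45 cells 13 members were higher in satellite cells (5.11% of all genes) and 1 was lower (6.56% of all genes). Median scaling called 23 members higher in satellite than in PDGFRa+ cells, against 3.22% of all genes, and 26 higher than in CD31_CD45 cells, against 4.46%. By adjusted p alone, without the 2-fold minimum, quantile normalised values placed 37 members higher in satellite than in PDGFRa+ cells (12.8% of all genes) and 47 higher than in CD31_CD45 cells (19.3%). The call against PDGFRa+ cells rests on few arrays: without the young PDGFRa array no member was called (and no gene of all tested), without the young or the aged satellite array 8 were, without the aged PDGFRa array the 2 members higher in PDGFRa+ cells (Rpl39l and Rps4l) were not, and the median difference stayed between -0.41 and -0.35 with any 1 array left out. With the local background of each spot in place of the blank spots, 0 members were called against PDGFRa+ cells and 3 against CD31_CD45 cells, with medians of -0.41 and 0.47. Over all tested genes that setting called 69 (0.376%) and 342 (1.86%), in either direction. The 2 comparisons share the satellite arrays. The file headers split the arrays by the slope used to merge scanner gains, 0.465 to 0.466 on the PDGFRa arrays and the young satellite array, and 0.477 to 0.478 on the CD31_CD45 arrays and the aged satellite array. With that group as a block 8 members were called against PDGFRa+ cells, with a median of -0.38. Over all tested genes 1312 were called with the block and 1338 without it, in either direction. Within the first group the members' share of intensity was 14.1% in satellite cells against 8.12% and 8.81%, and within the second 13.5% against 7.68% and 7.75%.

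Markers of each sorted type were highest in their own population. The 6 satellite cell markers summed to 17400 and 11840 in the satellite arrays and to at most 434.1 elsewhere, with Pax7 below background in both PDGFRa arrays. Myofibre markers (Acta1, Ckm, Myh4, Tnnt3 and Actn3) summed to 2183 and 3936 in the young and aged satellite arrays, against 330.6 and 141.4 in PDGFRa+ cells and 582.7 and 473.4 in CD31_CD45 cells. The 6 mesenchymal markers were at 4412 and 6992 in satellite cells, against 71770 and 55990 in PDGFRa+ cells. The part of either list in the ribosomal protein values was not tested.

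The canonical genes fell into 2 brightness classes with nothing between them. The 40 bright genes had mean intensities of 7308 or more and the 18 dim ones of at most 1522. Since a probe's brightness depends on its own sequence, this is no order of expression. The bright genes had a median satellite over PDGFRa fold of 1.94, from 1.42 to 2.68, and the dim ones of 2.56, from 0.82 to 3.7. The median log2 difference of the bright class was 0.33 after quantile normalisation and 0.92 after median scaling, and that of the dim class 1.1 and 1.01. All 11 canonical genes called higher in satellite than in PDGFRa+ cells were dim. At an adjusted p under 0.05 alone, quantile normalised values placed 19 of the 40 bright genes in that direction, against 12.8% of all tested genes. Median scaling placed all 40 there, against 2198 of all 18372 genes. With the 2-fold minimum it called 12 of the 40, against 3.22% of all genes. Across the 58 genes the fold of satellite cells over the other 4 arrays had a Spearman correlation of -0.5 with mean intensity and a Pearson correlation of logs of -0.29, a description over genes that share the same arrays. The dimmest members, such as Rpl37 with 3.3 to 19.4, are also compressed on the log2 scale by the offset added to every spot.

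**Figure D2:**
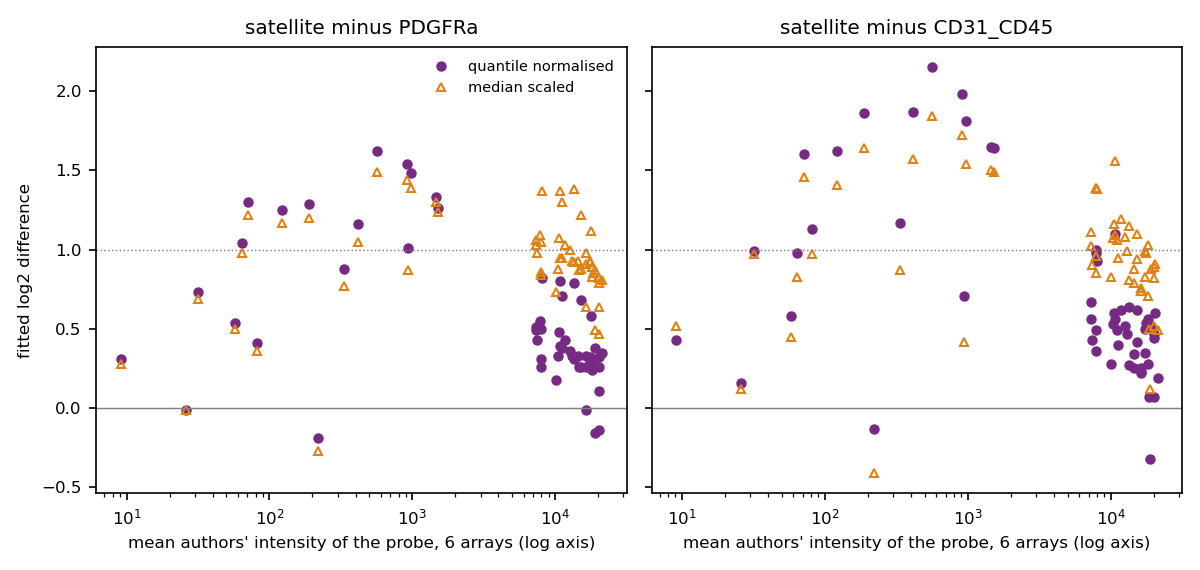
Fitted log2 difference of each canonical ribosomal protein gene, satellite minus PDGFRa (left) and satellite minus CD31_CD45 (right), against the mean authors' intensity of its probe (log axis), quantile normalised (dots) and median scaled (triangles); the dotted line marks 2-fold. The 40 bright genes have medians of 0.33 and 0.92 (left) and 0.48 and 0.94 (right) under the 2 scalings. The 18 dim genes have medians of 1.1 and 1.01 (left) and 1.38 and 1.19 (right).

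Rpl22, an RNA-binding protein of the large subunit, had the largest fitted log2 differences of the canonical genes. Its intensity was 1198.9 in young and 1010.2 in aged satellite cells, 352.3 and 362.6 in PDGFRa+ cells, and 237.2 and 226.4 in CD31_CD45 cells. The satellite arrays stood above the rest and the 3 populations did not overlap. Rpl22 was called against both, with log2 differences of -1.62 (SE 0.1, adjusted p = 0.00734, limma) for PDGFRa minus satellite and 2.15 (SE 0.1, adjusted p = 0.00222, limma) for satellite minus CD31_CD45. After median scaling they were -1.49 and 1.84, both called.

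Rpl23, which besides its place in the large subunit can bind the p53 regulator Mdm2, read 1811.4 (young) and 1653.3 (aged) in satellite cells, 549.2 and 649.4 in PDGFRa+ cells and 414.4 and 408.3 in CD31_CD45 cells. The satellite level was 2.9 times that of PDGFRa+ cells and 4.21 times that of CD31_CD45 cells. Rpl13a, also known from an interferon-induced complex that silences translation, read 1811.1 and 1773.8 in satellite cells, 593.5 and 701.4 in PDGFRa+ cells, and 498.3 and 472.7 in CD31_CD45 cells. Both were called in both comparisons, Rpl23 at -1.54 and 1.98 and Rpl13a at -1.48 and 1.81 on the log2 scale (limma, adjusted p from 0.00343 to 0.0103), and both kept both calls after median scaling.

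The order of satellite, then PDGFRa+, then CD31_CD45 cells was shared by 5 further large-subunit genes. Rpl14 read 332.6 and 383.3 in satellite cells, 117.1 and 145.4 in PDGFRa+ cells and 73.4 and 78.8 in CD31_CD45 cells, with log2 differences of -1.29 and 1.86. Rpl17, whose protein lines the exit tunnel for the nascent peptide, read 241.3 and 223.1, against 80.3 and 78.2 and against 53.4 and 57.5, with differences of -1.25 and 1.62. For Rpl21 the satellite fold was the highest of all canonical genes, 3.7 over PDGFRa+ cells and 5.43 over CD31_CD45 cells, from intensities of 155.5 and 137.3 against 39.0 and 39.9 and against 27.9 and 26.0. Rpl28 (-1.33 and 1.65) and Rpl31 (-1.16 and 1.87), a protein at the tunnel exit, were called in both comparisons as well. After median scaling these 5 genes were called in both comparisons too. None of these 5 genes overlapped between satellite cells and either other population. With the local background Rpl31 turned to 0.56 for PDGFRa minus satellite (adjusted p = 0.912, limma), and under that setting no member was called in that comparison.

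Rpl27a was the least steady of the called genes. Its intensity was 3356.7 in young and 2087.7 in aged satellite cells, 1011.8 and 1142.1 in PDGFRa+ cells and 920.1 and 615.6 in CD31_CD45 cells, and it was called at -1.26 (SE 0.25, adjusted p = 0.0436, limma) and 1.64 (SE 0.25, adjusted p = 0.0189, limma). It kept both calls after median scaling (-1.24 and 1.49). Rpl29 was called against PDGFRa+ cells (-1.01), and Rpl30 (1.17), Rpl36a (1.1), Rps24 (1.13) and the paralog Rpl22l1 (1.4) against CD31_CD45 cells. After median scaling Rpl29 (-0.87), Rpl30 (0.87) and Rps24 (0.97) fell short of 2-fold, while Rpl36a and Rpl22l1 were called against CD31_CD45 cells (1.56 and 1.48) and against PDGFRa+ cells as well (-1.37 and -1.12).

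In the small subunit, which has 23 canonical genes, quantile normalised values called Rps19 against PDGFRa+ cells and Rps24 against CD31_CD45 cells. This 1 gene of 23 in each comparison is near the share of all tested genes called higher in satellite cells, 3.2% and 5.11%. Median scaling called 6 genes against PDGFRa+ cells (Rps3, Rps6, Rps7, Rps9, Rps15 and Rps26), where 3.22% of all genes were called higher in satellite cells. It called 7 against CD31_CD45 cells (Rps3, Rps4x, Rps6, Rps7, Rps10, Rps15 and Rps26), against 4.46% of all genes, and neither Rps19 nor Rps24. Rps19, a protein needed for small-subunit maturation and mutated in Diamond-Blackfan anaemia, read 127.7 and 98.6 in satellite cells, 31.3 and 42.8 in PDGFRa+ cells and 43.0 and 39.2 in CD31_CD45 cells. It was called against PDGFRa+ cells (-1.04, SE 0.16, adjusted p = 0.0274, limma) and fell short of 2-fold against CD31_CD45 cells (0.98, SE 0.16, adjusted p = 0.0222, limma). After median scaling the differences were -0.98 and 0.83. Rps24, another gene of that anaemia, read 113.0 and 129.8 in satellite cells, 75.5 and 93.3 in PDGFRa+ cells and 33.0 and 45.5 in CD31_CD45 cells, so its step lay between CD31_CD45 cells and the other 2 populations.

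Rps6, the small-subunit protein phosphorylated by S6 kinase downstream of mTOR, read 24520.3 and 21962.0 in satellite cells, 7518.0 and 9987.1 in PDGFRa+ cells and 7935.1 and 9194.5 in CD31_CD45 cells. The satellite arrays were apart from the other 4, which overlapped. The log2 difference PDGFRa minus satellite was -0.79 (SE 0.12, adjusted p = 0.0282, limma) after quantile normalisation and -1.38 (adjusted p = 0.00306, limma) after median scaling, so it was called on the second scale and not on the first.

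Rpl5 and Rpl11 form a particle with 5S ribosomal RNA that joins the large subunit and, when unassembled, inhibits Mdm2. Rpl5 read 29510.6 and 24897.9 in satellite cells, 15024.0 and 12759.6 in PDGFRa+ cells and 11202.8 and 10979.6 in CD31_CD45 cells. Rpl11 read 12537.9 and 11683.2, against 6491.8 and 6726.3 and against 5047.1 and 5051.8. Neither gene overlapped between any 2 populations. PDGFRa minus satellite was -0.32 (adjusted p = 0.0626, limma) for Rpl5 and -0.26 (adjusted p = 0.0274, limma) for Rpl11 after quantile normalisation, and -0.93 and -0.84 after median scaling (adjusted p = 0.00235 and 0.00332, limma); neither was called on either scale.

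Rpl38 and Rps15a were the 2 canonical genes whose satellite arrays were not above all others in the authors' intensity. After quantile normalisation this also held for 7 bright genes (Rpl10, Rpl23a, Rpl32, Rpl34, Rpl41, Rps27 and Rps29). Rpl38, a large-subunit protein required in the mouse embryo for normal patterning of the axial skeleton, read 28.0 and 27.8 in satellite cells, 28.5 and 26.7 in PDGFRa+ cells and 24.3 and 19.8 in CD31_CD45 cells. Its PDGFRa minus satellite difference was 0.01 (SE 0.06, adjusted p = 0.971, limma). The Rpl38 probe was dim, with a mean intensity of 25.85. Its quantile normalised log2 values, from 6.34 to 6.59, are compressed by the offset added to every spot. Whether a probe this dim follows the level of the gene was not tested. Rps15a, a small-subunit protein, read 199.7 and 189.0 in satellite cells, 266.8 and 210.6 in PDGFRa+ cells and 229.4 and 219.5 in CD31_CD45 cells, the lowest population being satellite cells. None of its differences was called, the largest after quantile normalisation being 0.19 for PDGFRa minus satellite (SE 0.07, adjusted p = 0.144, limma). These genes were singled out after their values were seen.

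PDGFRa+ and CD31_CD45 cells lay closer together. In the authors' intensity both PDGFRa arrays were above both CD31_CD45 arrays for 52 of the 67 members, against 34.4% of all tested genes. They were below them for 3, against 30.2%. After quantile normalisation 32 members were above and 6 below, against 6955 and 5577 of all 18372 genes. After median scaling 23 were above and 8 below, against 9364 and 5412 of all genes. The median PDGFRa over CD31_CD45 fold of the canonical genes was 1.25, from 0.862 to 2.17. After quantile normalisation 1 member was called higher in PDGFRa+ cells (4.69% of all genes) and 0 in CD31_CD45 cells (5.39%), while 14 members were higher in PDGFRa+ cells by adjusted p alone, against 15.1% of all genes. The median log2 difference of the members was 0.14 after quantile normalisation, over 0.01 for all genes, and 0.06 after median scaling, under the 0.09 of all genes. Relative to all genes, the order of these 2 populations thus depended on the scale.

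The highest canonical PDGFRa over CD31_CD45 fold, 2.17, was that of Rps24, with a log2 difference of 0.72 (SE 0.05, adjusted p = 0.00461, limma), under the 2-fold minimum. The 1 member called was the paralog Rpl39l. It was called with any 1 array left out except the aged CD31_CD45 array, without which no member was called.

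The paralogs did not all follow their partners. Rpl39l, a copy of Rpl39 best known from the testis, read 176.5 and 131.6 in young and aged PDGFRa+ cells, 14.8 and 24.0 in satellite cells and 22.5 and 22.5 in CD31_CD45 cells. PDGFRa+ cells stood apart from both others, which overlapped. The log2 differences were 1.78 over satellite cells (SE 0.13, adjusted p = 0.00905, limma) and 1.71 over CD31_CD45 cells (SE 0.13, adjusted p = 0.00584, limma), with a fold of 8.09 and 6.77 in the authors' intensity. After median scaling the log2 differences were 1.74 and 1.66, both called. With the local background the call over CD31_CD45 cells was lost (0.96, adjusted p = 0.0864, limma). The call over satellite cells was lost without the young PDGFRa array (1.62, adjusted p = 0.0677, limma), without the aged one (1.96, adjusted p = 0.0521, limma) and with the local background (0.94, adjusted p = 0.115, limma). Its partner Rpl39, an exit-tunnel protein, read 14149.8 and 12597.2 in satellite cells, 5723.9 and 6871.3 in PDGFRa+ cells and 4330.0 and 3955.8 in CD31_CD45 cells, the order of the canonical genes.

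Rps4l, an Rps4x-like gene, was low in satellite cells. It read 69.9 and 100.8 there, 307.8 and 352.1 in PDGFRa+ cells and 286.7 and 295.4 in CD31_CD45 cells. Both differences were called, 1.57 for PDGFRa minus satellite (SE 0.1, adjusted p = 0.00743, limma) and -1.45 for satellite minus CD31_CD45 (SE 0.1, adjusted p = 0.00408, limma), and after median scaling (1.6 and -1.66). The first was lost without the young PDGFRa array (1.6, adjusted p = 0.0703, limma) and without the aged one (1.54, adjusted p = 0.0595, limma), and with the local background both were (1.09 and -1.14, adjusted p = 0.0865 and 0.0536, limma). The array annotation ties this probe to a non-coding RNA record. Rps4x read 30679.6 and 25791.6 in satellite cells, 14813.6 and 14800.5 in PDGFRa+ cells and 11848.6 and 10673.8 in CD31_CD45 cells.

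**Figure D3:**
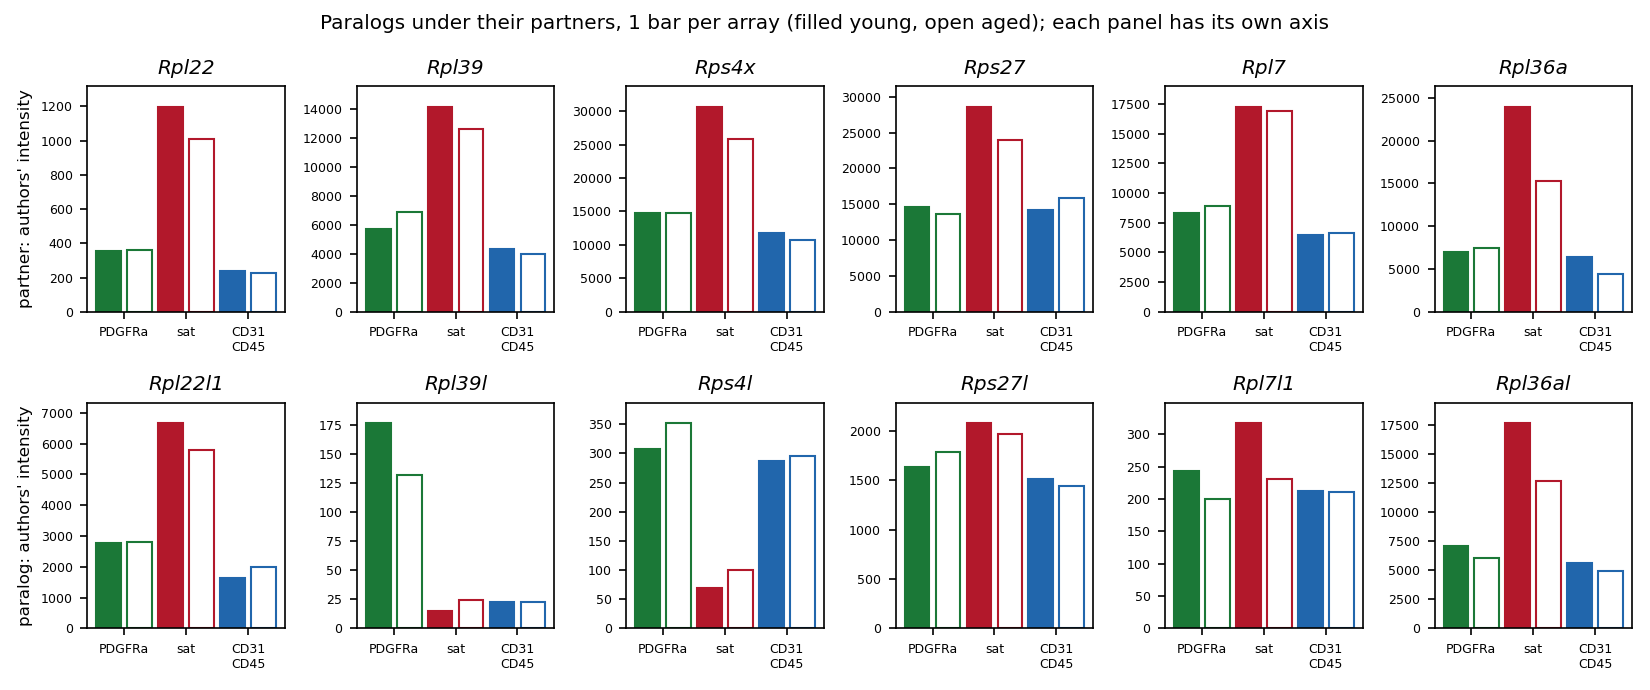
Authors' intensity of 6 ribosomal protein genes (upper row) and of their paralogs (lower row) on each array, filled bars young and open bars aged, each panel with its own axis from 0. Rpl39l is highest in PDGFRa+ cells (176.5 and 131.6), Rps4l is lowest in satellite cells (69.9 and 100.8), and the other panels have their highest bar in young satellite cells.

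Rpl22l1, which can replace Rpl22 in the large subunit, was highest in satellite cells like its partner, at 6665.2 and 5804.9, against 2760.3 and 2792.0 in PDGFRa+ cells and 1635.1 and 1988.9 in CD31_CD45 cells. It was called over CD31_CD45 cells (1.4, SE 0.1, adjusted p = 0.00508, limma), and over PDGFRa+ cells the difference, PDGFRa minus satellite, was -0.86 after quantile normalisation and -1.12 after median scaling. Rpl36al, nearly identical in protein to Rpl36a, read 17711.5 and 12688.5 in satellite cells, 7135.7 and 6039.6 in PDGFRa+ cells and 5665.5 and 4938.3 in CD31_CD45 cells. For Rpl36a the values were 23986.8 and 15274.0, 7030.2 and 7425.5, and 6369.8 and 4363.1. These 2 genes are alike enough in sequence that their probes may share signal, which was not tested.

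Rps27l, a p53 target, was nearly level at 2080.4 and 1966.9 in satellite cells, 1637.3 and 1791.5 in PDGFRa+ cells and 1508.8 and 1439.7 in CD31_CD45 cells, while Rps27 read 28640.8 and 23920.5, 14655.4 and 13665.8, and 14192.9 and 15937.7. Rpl7l1, a protein of large-subunit precursors, read 317.2 and 230.7 in satellite cells, 242.5 and 200.5 in PDGFRa+ cells and 211.7 and 211.1 in CD31_CD45 cells, so satellite and PDGFRa+ cells overlapped; its partner Rpl7 did not (17274.5 and 16935.9 in satellite cells, at most 8930.2 elsewhere). Rps19bp1, the nucleolar binding protein, read 328.8 and 297.9 in satellite cells, 267.1 and 266.2 in PDGFRa+ cells and 180.3 and 192.7 in CD31_CD45 cells. None of these 3 genes was called in any comparison.

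Rpl3l, the striated-muscle form of Rpl3, was at 8.0 in young and 11.6 in aged satellite cells, at 2.6 and 1.3 in CD31_CD45 cells and below background in both PDGFRa arrays. The satellite arrays that hold this signal also hold the highest myofibre marker sums, 2183 and 3936, whose part in it was not tested. Rpl3 itself, close to the peptidyl transferase centre, read 16021.9 and 12530.7 in satellite cells, 4982.5 and 5741.0 in PDGFRa+ cells and 4270.1 and 4586.8 in CD31_CD45 cells. Rpl10l, the testis copy of Rpl10, lay between 3.1 and 4.7 on all 6 arrays, while Rpl10 lay between 12846.9 and 29846.9.

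Ribosomal protein genes have many near-identical processed pseudogenes, and the sequences of the probes were not used here, so signal from such copies cannot be told apart from that of the gene. Rpl9 and Rps28 had a second probe. The dimmer Rpl9 probe read 154.3 and 141.3 in satellite cells, 77.4 and 55.2 in PDGFRa+ cells and 76.3 and 45.4 in CD31_CD45 cells, the same order as the bright one (25505.5 and 23401.9 in satellite cells, at most 13460.9 elsewhere). The second Rps28 probe read 28173.1 and 25997.2 in satellite cells and at most 14728.3 elsewhere.

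Of ribosomal proteins whose symbols the rule leaves out, Rpsa and Fau were measured. Rpsa, a small-subunit protein also described as a laminin receptor, read 483.1 and 483.5 in satellite cells, 172.1 and 166.2 in PDGFRa+ cells and 104.8 and 107.9 in CD31_CD45 cells. It was called over both, at -1.41 for PDGFRa minus satellite (adjusted p = 0.00392, limma) and 1.93 for satellite minus CD31_CD45 (adjusted p = 0.000857, limma). Fau, which encodes a ubiquitin-like protein fused to a small-subunit protein, read 13617.1 and 12805.8 in satellite cells, 6286.4 and 7418.7 in PDGFRa+ cells and 9810 and 9517.6 in CD31_CD45 cells. It was not called in any comparison. Satellite minus CD31_CD45 was -0.36 (adjusted p = 0.04, limma) after quantile normalisation and 0.16 after median scaling, so its sign depended on the scale. PDGFRa minus CD31_CD45 was -0.71 (adjusted p = 0.0113, limma) and -0.76.

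Of 49 ribosome biogenesis genes measured, 9 were called higher in satellite than in PDGFRa+ cells, against 3.2% of all tested genes, and 17 higher than in CD31_CD45 cells, against 5.11%. None was called lower in satellite cells, and the medians were -0.7 for PDGFRa minus satellite and 0.78 for satellite minus CD31_CD45. After median scaling the counts were 6 and 10, against 3.22% and 4.46% of all genes, and the medians -0.61 and 0.61. Nop58, a core protein of the particles that methylate ribosomal RNA, led the list. It read 1513.3 and 1626.6 in satellite cells, 360.8 and 378.7 in PDGFRa+ cells and 324.8 and 329 in CD31_CD45 cells (-2.04, SE 0.05, adjusted p = 0.00392, and 2.16, SE 0.05, adjusted p = 0.001, limma). Fbl, the methyltransferase of the same particles, read 3519.1 and 2315 in satellite cells, 871.7 and 657.8 in PDGFRa+ cells and 581.3 and 687.4 in CD31_CD45 cells. Gnl3 (nucleostemin, a nucleolar GTPase) was called in both comparisons, at -1.53 and 1.94. Ncl (nucleolin) was also called in both, at -1.35 and 1.2, and Tsr1, a factor of small-subunit maturation, at 1.66 against CD31_CD45 cells. These 5 genes kept the calls named here after median scaling.

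Among 34 translation factors 5 were called higher in satellite than in PDGFRa+ cells, against 3.2% of all tested genes, and 6 higher than in CD31_CD45 cells, against 5.11%, with none lower and medians of -0.63 and 0.69. Median scaling called 10 and 6, against 3.22% and 4.46% of all genes, with medians of -0.67 and 0.61. The initiation factors Eif1a (-1.91 and 2.41), Eif3e (-1.28 and 1.25), Eif3k (-1.06 and 1.07) and Eif3l (-1.02 and 1.28) were called in both comparisons, and the elongation factor subunit Eef1d in the second (1.35). After median scaling Eif1a was called in both (-1.81 and 2.13) and so was Eef1d (-1.22 and 1.56). Eif3e and Eif3k were called against PDGFRa+ cells only (-1.15 and -1.08) and were at 0.96 each against CD31_CD45 cells, and Eif3l in neither (-0.89 and 0.97). Eif1a read 1364.9 and 760.9 in satellite cells, 303.5 and 217.6 in PDGFRa+ cells and 225.7 and 126.2 in CD31_CD45 cells.

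The mitochondrial ribosome, encoded by a separate set of nuclear genes, was near the middle of all genes between PDGFRa+ and satellite cells. Its place between satellite and CD31_CD45 cells depended on the scale. Of its 78 measured genes 0 were called between PDGFRa+ and satellite cells, with a median of -0.11. Of all tested genes 4.09% were called higher in PDGFRa+ cells and 3.2% higher in satellite cells. At an unadjusted p under 0.05 (limma) there were 37 of the 78, against 7016 of all 18372 tested genes. Against CD31_CD45 cells 3 were called higher in satellite cells (Mrpl52, Mrps28 and Mrps18b), against 5.11% of all tested genes, with a median of 0.17. In that comparison 60 of the 78 had a higher value in satellite cells, against 10620 of all 18372 genes. By adjusted p alone 25 were higher and 5 lower, against 3546 and 2861 of all genes. After median scaling 15 were higher and 16 lower by adjusted p alone, against 3172 and 3578. The medians of the 2 comparisons were then -0.03 and -0.03, so the second changed sign. The calls also became two-sided, with Mrpl52 and Mrps28 higher in satellite than in CD31_CD45 cells and Mrpl18, Mrpl44 and Mrps18c lower. Over all 18372 tested genes 819 were called higher and 1455 lower on that scale. Mrps28 was called higher in PDGFRa+ than in CD31_CD45 cells (1.14), a call that median scaling lost (0.98). Whether the lists differ from each other was not tested.

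Among 20 regulators of ribosome supply and translation, Myc, the transcription factor that drives ribosome biogenesis genes, was called in all 3 comparisons. It read 639.1 and 568.2 in satellite cells, 256.8 and 223.3 in PDGFRa+ cells and 56.8 and 65 in CD31_CD45 cells. The populations did not overlap, and the differences were -1.28 for PDGFRa minus satellite, 1.51 for PDGFRa minus CD31_CD45 and 2.79 for satellite minus CD31_CD45 (SE 0.07 for each, adjusted p from 0.000998 to 0.00644, limma). Its relative Mycn was called lower in PDGFRa+ than in CD31_CD45 cells (-1.06). Mxd4, a repressor of the Myc network, was called lower in satellite than in CD31_CD45 cells (-1.12), and Atf4, a stress-response transcription factor, higher (1.09). Eif2ak3, the kinase PERK, was called higher in PDGFRa+ than in satellite cells (1.17). These calls held after median scaling, which also called Atf4 higher in satellite than in PDGFRa+ cells (PDGFRa minus satellite -1.18, and -0.91 after quantile normalisation). The remaining regulators, Mtor and Larp1 among them, were not called in any comparison on either scale. Larp1, which binds terminal oligopyrimidine tracts, read 167.7 and 201.6 in satellite cells, 140.9 and 144.2 in PDGFRa+ cells and 108.3 and 127.3 in CD31_CD45 cells.

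**Figure D4:**
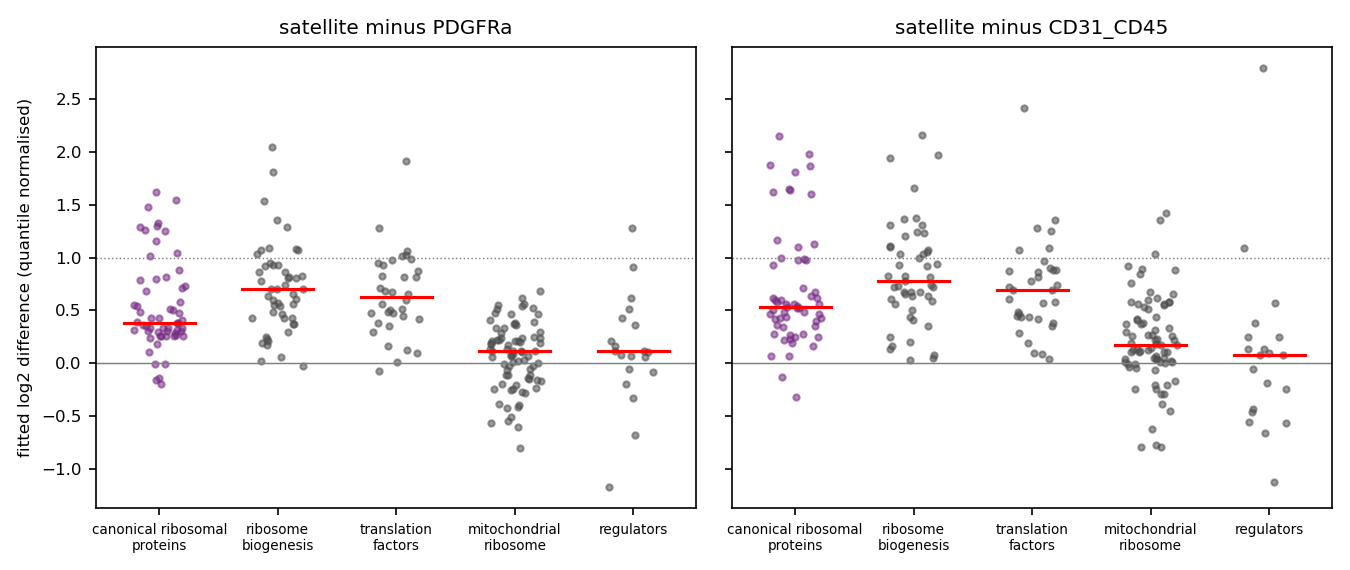
Fitted log2 differences (quantile normalised) of the canonical ribosomal protein genes and of 4 other lists, satellite minus PDGFRa (left) and satellite minus CD31_CD45 (right), 1 point per gene; red lines are medians and the dotted line marks 2-fold. Biogenesis genes and translation factors lie above 0 for nearly every gene, the mitochondrial ribosome spreads on both sides of it, and the highest regulator on the right is Myc (2.79).

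No ribosomal protein gene was called for age. For the age term common to the 3 populations, 0 members and 0% of all tested genes were called (limma), and 12 members had an unadjusted p under 0.05, of 2026 genes in all. After median scaling 0 members were called and 7 had an unadjusted p under 0.05 (limma), of 1782 genes in all. The median aged minus young difference of the members was 0.04, with single genes from -0.29 to 0.27. The lowest value was that of Rpl32, a large-subunit protein, at -0.29 (SE 0.04, adjusted p = 0.328, limma), from 13732.6 to 10997.6 in PDGFRa+ cells, from 26605.4 to 20190.1 in satellite cells and from 10790.5 to 8988.4 in CD31_CD45 cells, young to aged.

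Within a population age is 1 array against 1 array, with no test. In PDGFRa+ cells 49 of the 67 members were higher and 16 lower in the aged array, with a median of 0.08, while in satellite cells 30 were higher and 36 lower (median -0.01) and in CD31_CD45 cells 34 and 30 (median 0.01). Over all 18372 tested genes the medians were 0, -0.01 and -0.01, with 9146 higher and 9214 lower in PDGFRa+ cells. In satellite cells 8083 of all genes were higher and 10266 lower, and in CD31_CD45 cells 7998 and 10353. No member differed by as much as 2-fold in any pair. After median scaling the member medians were 0.15, 0.06 and -0.04, where those of all tested genes were 0.01, -0.05 and -0.04. As log2 of the authors' intensity plus 1 the member medians were 0.05, -0.16 and -0.03. The member median of the PDGFRa pair thus kept its sign, and those of the satellite and CD31_CD45 pairs did not.

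The highest aged minus young values in PDGFRa+ cells were those of Rps6 (0.5), Rps7 (0.48) and Rpl24 (0.44), and the lowest those of Rpl32 (-0.36), Rpl5 (-0.23) and Rpl36al (-0.22). Rps7, a small-subunit protein that also binds Mdm2, read 6264.1 in the young and 8553.7 in the aged PDGFRa array, and 20633.4 and 16506.9 in satellite cells. In satellite cells Rps4l (0.41), Rpl14 (0.27) and Rpl39l (0.25) were highest and Rpl27a (-0.46), Rpl36a (-0.42) and Rpl34 (-0.36) lowest. In CD31_CD45 cells Rpl28 (0.48), Rpl22l1 (0.34) and Rps27 (0.24) were highest and Rpl36a (-0.58), Rpl27a (-0.51) and Rps3 (-0.34) lowest. Rpl27a and Rpl36a thus had their low values in the same 2 populations, while in PDGFRa+ cells they were at 0.31 and 0.14.

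Rpl26, Rpl32 and Rpl34 were lower in all 3 aged arrays on both log2 scales, and 9 canonical genes were higher in all 3 on both, among them Rpl14, Rps6 and Rps24. These 12 genes were picked by their values, and none was called. The share of all tested genes lying on the same side in all 3 pairs was not counted. The counts of 3 and 9 are therefore no result about the members. The 5 hematopoietic markers summed to 163.4 in the young and 1972 in the aged PDGFRa array, 167.5 and 1050 in satellite cells, and 23000 and 27420 in CD31_CD45 cells, mostly from Lyz2 (110.1 and 1904.6 in PDGFRa+ cells). The part of such cells in the age differences of the ribosomal protein genes was not tested.

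**Figure D5:**
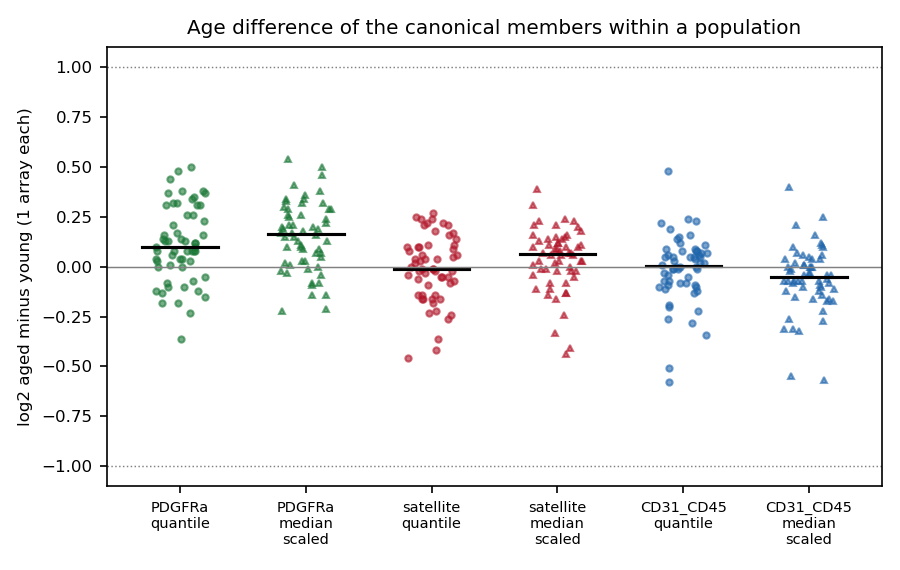
Log2 aged minus young difference of the 58 canonical ribosomal protein genes within each population, 1 array per age, quantile normalised (dots) and median scaled (triangles), with a line at the median and dotted lines at 2-fold. The medians run from -0.05 to 0.16, and no gene reaches 2-fold.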

How the data were processed

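Each array has a scanner file and a column in a value table. Median spot intensity (27456 spots, read at 635 nm with 3 gains combined) comes from the scanner files, per the file headers. The authors' deposited table gives intensity on a linear scale with a median of 25 per array; its cells are empty where a spot was not above the blank spots. RNA was amplified and Cy5-labelled, per the labels' protocols; the genome build is not given in the sources used here.

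Spot medians were corrected here with limma's normexp method, with background set to the mean of the 2736 blank spots after 5% trimming and an offset of 50, then log2 transformed and quantile normalised. Folds of dim genes are understated on that scale. Genes above background on at least 2 of 6 arrays were tested (18372). limma 3.58.1 (R 4.3.3) fitted 1 additive model of population and age over the 6 arrays (2 residual and 1.5 prior degrees of freedom, two-sided, Benjamini-Hochberg over all tested genes). In it the 2 arrays of a population differ in age. The fit was tested on simulated data. Folds in the authors' intensity are ratios of geometric means of 2 arrays.

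The members, gene lists and tests were chosen with earlier results of these data known. Named members are those called in a population comparison (up to 10 by size), the 3 highest and 3 lowest aged over young in each population, the paralogs with their partners, Rps19bp1, Rpl5, Rpl11, Rps6 and Rps19, and from other lists up to 4 called genes per comparison; a few others were named after their values were seen. Alternatives were the offset, no or local background, median scaling, the value table as log2(value + 1), the filter, the probe choice, an intensity trend, the gain group as a block, no fold minimum and leaving out each array; quantile normalisation on other probes and median scaling with an offset of 10 were added after the data were seen.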

Additional observations from a re-analysis of the deposited data

Results flagged for a closer look

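The median aged minus young log2 difference of the ribosomal protein genes was 0.08 in PDGFRa+ cells and -0.01 in satellite cells, 0.09 apart, with 49 and 30 of 67 members higher in the aged array. With 1 array per age the medians lie on opposite sides of 0, which is why the result is listed, and the difference was not tested. After median scaling both member medians were positive, at 0.15 and 0.06, where those of all tested genes were 0.01 and -0.05. On the quantile scale the medians of all tested genes were 0 and -0.01, with 9146 and 8083 of 18372 genes higher. The hematopoietic marker sum was higher in the aged array of both populations, at 1972 against 163.4 in PDGFRa+ cells and at 1050 against 167.5 in satellite cells, and its part in the difference was not tested.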

How the results depend on the processing

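The direction of the member medians between populations was the same under every alternative run, and the number of members called was not. For PDGFRa against satellite, 13 members were called; local background gave 0, median scaling 25, the authors' values 32, the gain group as a block 8, no fold minimum 39, median scaling with an offset of 10 gave 27, and leaving out an array 0 to 9. Its median of -0.36 became -0.92 with median scaling at either offset, -0.97 with the authors' values and -0.52 with quantile normalisation on the probes of other genes. Over all tested genes 1338 were called in this comparison, 69 with local background, 1416 with median scaling and 2979 with the authors' values. The gain group as a block called 1312 of all genes, no fold minimum 4511, and median scaling at an offset of 10 called 2232. For PDGFRa against CD31_CD45, 1 was called; an offset of 10 gave 2, local background 0, the authors' values 3, no fold minimum 14, and leaving out an array 0 to 1. Its median of 0.14 became 0.06 with median scaling, 0.24 with that and an offset of 10, and 0.32 with the authors' values. All-gene calls there were 1852, and 2939 with an offset of 10, 288 with local background, 3780 with the authors' values and 5272 without fold minimum. For satellite against CD31_CD45, 14 were called; local background gave 3, median scaling 27, the authors' values 54, no fold minimum 48, median scaling with an offset of 10 gave 46, and leaving out an array 12 to 16. All-gene calls there were 2145, and 342 with local background, 2274 with median scaling and 4422 with the authors' values. Without fold minimum they were 6407, and with median scaling at an offset of 10 they were 3459. The members' median of 0.52 became 0.94 with median scaling and 1.14 with that and an offset of 10. It was 1.27 with the authors' values and 0.69 with quantile normalisation on other probes. The cause was not tested. For the common age term 0 members were called under every alternative run, and the median of 0.04 became -0.03 with local background and -0.05 with the authors' values. Within populations, the aged over young median became 0.15 and 0.19 (median scaling, offsets of 50 and 10) in PDGFRa+ cells, 0.06 (median scaling) and -0.16 (authors' values) in satellite cells, and -0.06 (median scaling, offset of 10) in CD31_CD45 cells. The 1 reversed gene was Rpl31, at 0.56 for PDGFRa against satellite with local background. A population left with 1 array is assumed to vary like the others. The model compares populations within each age, so it holds age as the pairing of the arrays, and no replicate number pairs them further.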
